A study of Mus musculus with 8 samples.

Results

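The genes P2ry12, Tmem119, Cx3cr1, Fcrls, Olfml3, Siglech, Csf1r, Aif1 and Gpr34 mark microglia, the resident macrophages of the brain. They are grouped here as genes of the homeostatic (surveying) state, although the study used the Aif1 protein (IBA1) to count microglia in general. They were taken by name, by a rule that holds no measured value but was made with earlier results of these data known, and every non-control probe whose accession mapped to one of them was kept. This gave 14 probes of 39429 on the array, for 9 of the 19751 genes to which a probe could be matched. RNA from hand-dissected hippocampus of C57BL/6J wild type mice was measured on 1-colour Agilent arrays, on which the brightness of a Cy3-labelled spot reports the abundance of a transcript. The mice received no treatment and differed by label in age alone, with 4 samples at 3 months (3M) and 4 at 29 months (29M). According to the study's methods, the aged animals were bought old and kept for further months before use. The sources used here give no sex, and no label says that RNA of several animals was pooled or that each sample was 1 animal, so the p-values measure the spread between these samples. In whole tissue, fewer or more cells of a type and less or more RNA per cell cannot be told apart. The study counted stained cells in part of the hippocampus and reported no significant change in the number of microglia. It also stated that marker genes of microglia were unaltered in its expression analysis. Neither result was tested here.

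Homeostatic microglia survey the tissue with motile processes. P2ry12, a receptor for adenine nucleotides, steers these processes towards sites of injury, and Cx3cr1 is the receptor for fractalkine (Cx3cl1), a chemokine made by neurons. Csf1r, the receptor for the growth factors Csf1 and Il34, is required for the survival of microglia. Expression of P2ry12, Tmem119 and other genes of this state depends on TGF-beta signalling and on transcription factors such as PU.1 (encoded by Spi1), Irf8 and Sall1. When microglia take up debris, amyloid or myelin, many of these genes are known to be lowered while another set, with Cst7, Itgax and Spp1, is raised.

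The 8 arrays lay on 3 slides, each of which held both age groups and was scanned by itself. Between 76.2% and 85.0% of the spots of an array exceeded background clearly, the lowest share being that of replicate 1 of 3M, and normalized intensities of any pair of arrays correlated across probes with r from 0.992 to 0.998. The scanner software had set this array alone apart for evaluation. All 10 marker genes of hippocampal cell fields, such as Prox1 of the dentate gyrus, were well above background on all 8 arrays, as were all 14 probes of the 9 microglia genes. None of the spots of the 9 genes was saturated, each probe had 1 spot per array, and 1 spot in all (a Cx3cr1 probe on replicate 4 of 29M) was marked as an outlier and left out. Levels of different probes are not comparable on an array, so every comparison below is between ages for the same probe.

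RefSeq (GRCm38.p6) start-site windows, from 250 bases before to 50 after the start, were read for 6 of the 9 genes. Tmem119, Gpr34 and Csf1r are named only. The windows were searched on both strands for the letters GAGGAA and GGAAGT, which are cores of the motif bound by ETS factors such as PU.1, and for TATAAA and CAGAC, the TATA box and a SMAD core. At least 1 ETS core was in 4 of the 6 windows, against 43.4% of the 32851 windows of the same length that were searched, which did not cover every gene. GAGGAA was in 3 of 6 (28.3% of all windows), GGAAGT in 3 of 6 (23.8%), TATAAA in 1 of 6 (13.6%) and CAGAC in 4 of 6 (49.6%). With 6 windows these shares are a description. Of the genes the results below turn on, P2ry12 and Cx3cr1 are shown as receptors that define the state. Aif1 is shown because its values followed those of the Cx3cr1 probe A_55_P2007964 closely, though not those of A_52_P99810. Fcrls is shown because single arrays of both ages stood apart in it. Capitals mark the ETS cores, written as they read on the gene strand, so that a core on the opposite strand appears as TTCCTC or ACTTCC.
P2ry12, chr3:59262936-59263235, minus strand: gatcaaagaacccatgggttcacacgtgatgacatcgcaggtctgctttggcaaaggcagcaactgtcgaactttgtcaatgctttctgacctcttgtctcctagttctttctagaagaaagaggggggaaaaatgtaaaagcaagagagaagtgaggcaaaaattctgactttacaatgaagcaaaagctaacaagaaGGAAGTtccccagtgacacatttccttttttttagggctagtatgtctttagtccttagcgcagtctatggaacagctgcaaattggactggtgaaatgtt
Cx3cr1, chr9:120068247-120068546, minus strand: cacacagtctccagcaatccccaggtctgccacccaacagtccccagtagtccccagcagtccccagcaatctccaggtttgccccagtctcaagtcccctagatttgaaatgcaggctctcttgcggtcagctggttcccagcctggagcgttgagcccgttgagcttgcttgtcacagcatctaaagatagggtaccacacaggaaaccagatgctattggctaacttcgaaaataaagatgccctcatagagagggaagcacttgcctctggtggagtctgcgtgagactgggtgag
Aif1, chr17:35176003-35176302, minus strand: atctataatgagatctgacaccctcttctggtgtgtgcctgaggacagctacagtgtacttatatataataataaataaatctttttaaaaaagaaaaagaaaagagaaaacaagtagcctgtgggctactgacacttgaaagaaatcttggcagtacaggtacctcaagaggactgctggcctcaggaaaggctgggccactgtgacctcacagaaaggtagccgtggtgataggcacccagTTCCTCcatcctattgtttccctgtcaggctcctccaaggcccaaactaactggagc
Fcrls, chr3:87263475-87263774, minus strand: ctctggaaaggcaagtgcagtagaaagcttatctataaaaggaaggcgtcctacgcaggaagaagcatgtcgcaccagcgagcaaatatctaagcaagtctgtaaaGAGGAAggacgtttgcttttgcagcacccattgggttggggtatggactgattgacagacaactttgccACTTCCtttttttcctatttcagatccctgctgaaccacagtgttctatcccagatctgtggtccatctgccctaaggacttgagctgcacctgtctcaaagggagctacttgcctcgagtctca
The core in the P2ry12 window began 51 bases before the start on the gene strand, and that of Aif1 lay 7 bases before it on the opposite strand. The Fcrls window held one core of each kind, 144 and 75 bases before the start, and the Siglech window held both kinds on the opposite strand, 4 and 156 bases before it. These letters were not found in the windows of Cx3cr1 and Olfml3. A match is a run of letters and not a measured binding site.

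No probe of the 9 genes passed the criteria for an age effect, an adjusted p under 0.1 with a log2 change of at least 0.5 (1.414-fold) in limma with Benjamini-Hochberg adjustment over 39408 probes. Over all tested probes, 1.21% were called higher in 29M and 0.708% lower. Most of the microglia probes nevertheless lay somewhat higher in 29M, 12 of 14 against 50.2% of all tested probes. At an unadjusted p under 0.05, 6 of the 14 probes were higher, in the genes P2ry12, Tmem119, Cx3cr1, Csf1r and Gpr34, and 0 were lower, where 8.11% and 8.22% of all tested probes were higher and lower at this level. The lowest adjusted p of a member was 0.110. With each gene taken by the probe with the highest mean, the median log2 change over the 9 genes was 0.31, against 0.00 over all tested probes. In 3 of the 14 probes every 29M value lay above every 3M value, which held for 5.34% of all probes. For 8 of the 14 probes the 95% confidence interval of the change ended below 0.5, and for 12 it began above -0.5, so that a fall of that size lay within the interval for 1 probe each of Fcrls and Olfml3.

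**Figure D1:**
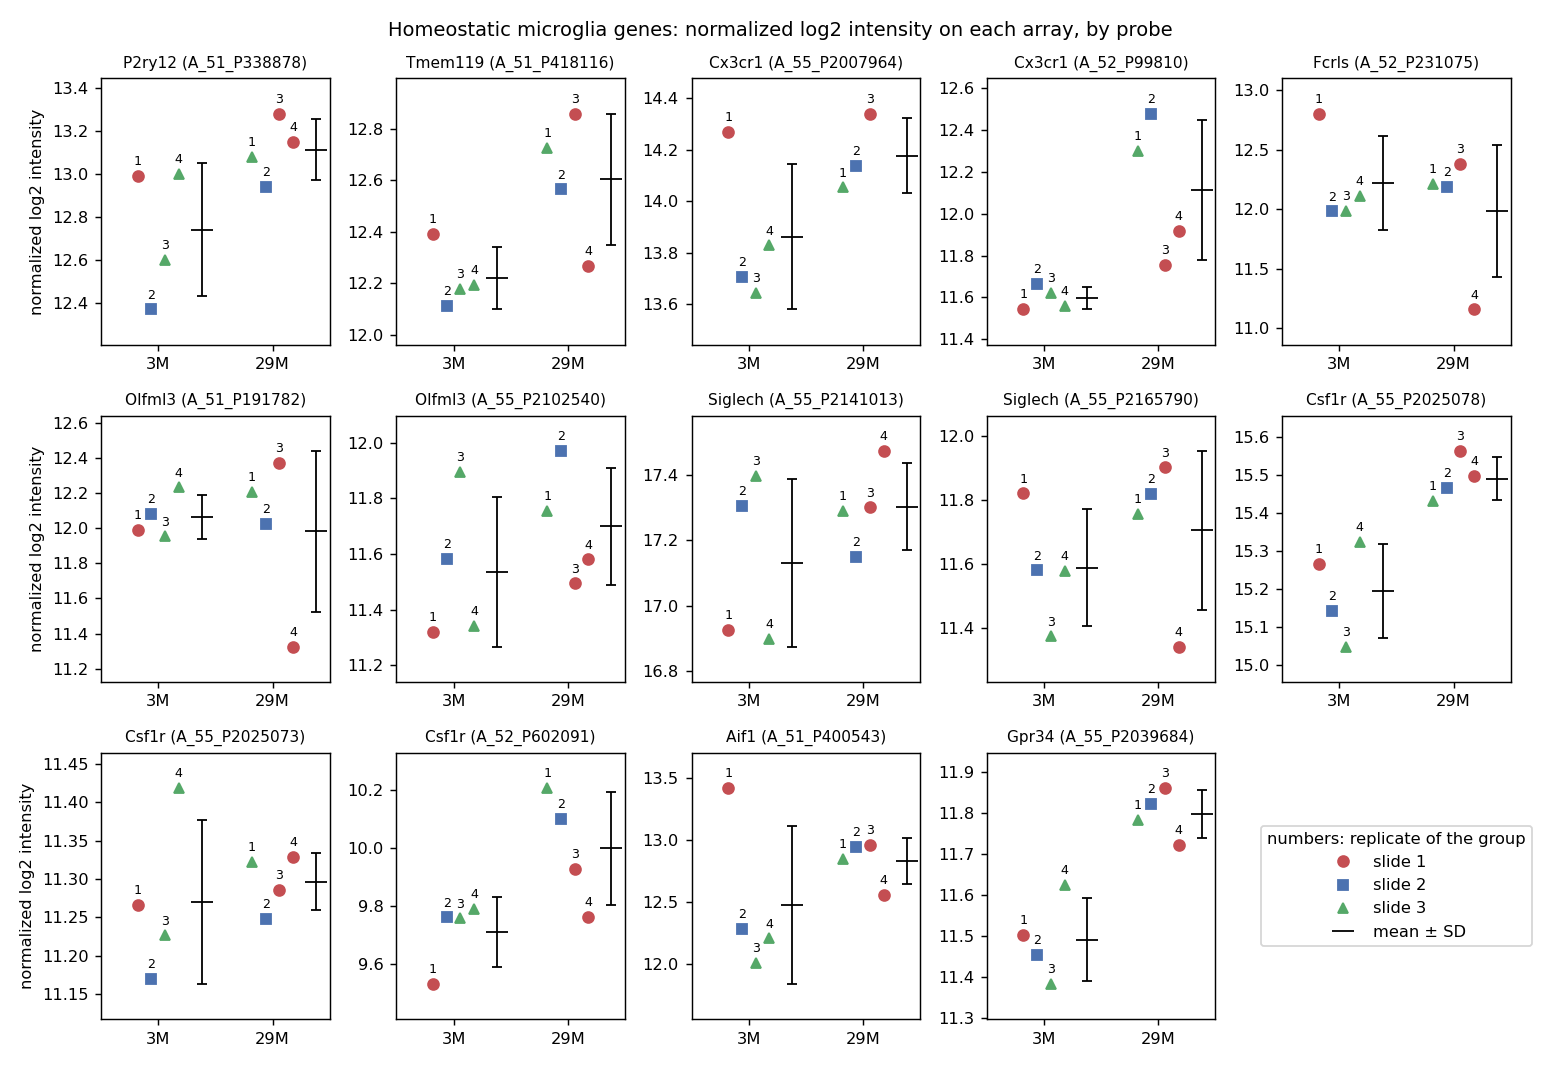
Normalized log2 intensity of each of the 14 probes on each array (one panel per probe, y axis in log2 units with its own range; replicate numbers above the points, colour and shape for the slide, line and bars for mean ± SD of a group). The 29M values lie above all 3M values for Gpr34, Csf1r A_55_P2025078 and Cx3cr1 A_52_P99810, while replicate 1 of 3M stands high for Aif1 and Fcrls and replicate 4 of 29M stands low for Fcrls and Olfml3.

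Among the receptors that sense signals in the tissue, P2ry12 read 12.99, 12.37, 12.60 and 12.999 (normalized log2 intensity, replicates 1 to 4) in 3M and 13.08, 12.94, 13.28 and 13.15 in 29M. The groups overlapped, because replicates 1 and 4 of 3M lay above the lowest 29M array, and the 3M values were spread more widely (SD 0.31) than those of 29M (SD 0.14). The change was 0.37 ± 0.15 (log2, SE), or 1.29-fold with a 95% confidence interval from 1.03 to 1.63, at an adjusted p of 0.256. Gpr34, a receptor for lysophosphatidylserine, read 11.50, 11.45, 11.38 and 11.62 in 3M and 11.78, 11.82, 11.86 and 11.72 in 29M. Here all 29M arrays lay above all 3M arrays and replicates were close (SD 0.10 and 0.06). The change of 0.31 ± 0.08 (1.24-fold, interval 1.09 to 1.40) had the adjusted p of 0.110 given above, and its interval ended below the size that a call required.

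Cx3cr1 was measured by 2 probes. The probe with the higher mean, A_55_P2007964, read 14.27, 13.71, 13.64 and 13.83 in 3M and 14.05, 14.14 and 14.34 on the 3 usable arrays of 29M. Replicate 1 of 3M was higher than 2 of these 3, and the change was 0.32 ± 0.16 with an adjusted p of 0.368. The other probe, A_52_P99810, read 11.55, 11.66, 11.62 and 11.56 in 3M and 12.30, 12.48, 11.76 and 11.92 in 29M. For this probe the groups were separate, the 3M arrays being tightly together (SD 0.05) and the 29M arrays far apart (SD 0.33). Its change of 0.51 ± 0.15 (1.43-fold, interval 1.13 to 1.80) was the largest of the 14 and the only one of at least 0.5, with an adjusted p of 0.1303.

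Csf1r was covered by 3 probes that did not read alike. On A_55_P2025078, the one with the highest mean, it read 15.27, 15.14, 15.05 and 15.32 in 3M and 15.43, 15.47, 15.56 and 15.50 in 29M. These groups did not overlap, and the change of 0.29 ± 0.09 (1.23-fold, interval 1.07 to 1.40) came with an adjusted p of 0.136. A_52_P602091 changed by nearly the same amount, 0.29 ± 0.11, from values of 9.53 to 9.79 in 3M to 9.76 to 10.21 in 29M, with an adjusted p of 0.241. A_55_P2025073 in contrast read 11.27, 11.17, 11.23 and 11.42 in 3M and 11.32, 11.25, 11.29 and 11.33 in 29M. Here the 29M arrays lay inside the range of 3M, with a change of 0.03 ± 0.08 and an interval from -0.16 to 0.21.

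Tmem119, a transmembrane protein used to tell microglia from other macrophages, read 12.39, 12.11, 12.18 and 12.19 in 3M and 12.73, 12.56, 12.86 and 12.27 in 29M. Of the 29M arrays, 3 lay above all 3M arrays and replicate 4 lay below replicate 1 of 3M. The change was 0.38 ± 0.13 (1.31-fold, interval 1.07 to 1.60) with an adjusted p of 0.183. Siglech, a sialic acid binding lectin that signals through the adaptor Tyrobp, had 2 probes. On A_55_P2141013 it read 16.93, 17.31, 17.40 and 16.90 in 3M and 17.29, 17.15, 17.30 and 17.47 in 29M, a change of 0.17 ± 0.13 with an adjusted p of 0.571. On A_55_P2165790 it read 11.82, 11.58, 11.37 and 11.58 in 3M and 11.76, 11.82, 11.90 and 11.34 in 29M, a change of 0.12 ± 0.14 with an adjusted p of 0.737. On both probes the groups overlapped. Leaving out 1 array moved the first change between 0.09 (replicate 4 of 3M dropped) and 0.26 (replicate 3 of 3M dropped), and the second between 0.05 (replicate 3 of 3M dropped) and 0.24 (replicate 4 of 29M dropped).

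Fcrls, an Fc receptor-like scavenger molecule, was the gene with the lowest change. It read 12.80, 11.98, 11.99 and 12.11 in 3M and 12.21, 12.19, 12.38 and 11.16 in 29M. The highest of the 8 values was in 3M and the lowest in 29M, while the other 3 arrays of 29M lay above the other 3 of 3M. The change was -0.24 ± 0.28 (adjusted p 0.731), with an interval from -0.85 to 0.38. Without replicate 4 of 29M it was 0.04 ± 0.20, and without replicate 3 of 29M it was -0.37 ± 0.29. Olfml3, a secreted olfactomedin-like protein, read 11.99, 12.08, 11.95 and 12.23 in 3M and 12.20, 12.03, 12.37 and 11.33 in 29M on A_51_P191782. Again replicate 4 of 29M was far below the others, and the change of -0.08 ± 0.20 became 0.14 ± 0.11 without it. When replicate 3 of 29M was dropped instead, the change was -0.21 ± 0.19. The other Olfml3 probe, A_55_P2102540, gave 0.16 ± 0.15 (adjusted p 0.642), with values from 11.32 to 11.90 in 3M and from 11.49 to 11.97 in 29M. Leaving out 1 array moved it from 0.07 (without replicate 2 of 29M) to 0.29 (when replicate 3 of 3M was dropped).

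Aif1, the actin-bundling calcium-binding protein known as the antigen Iba1, became a called gene when replicate 1 of 3M was left out. It read 13.42, 12.28, 12.01 and 12.20 in 3M and 12.85, 12.94, 12.96 and 12.56 in 29M. Replicate 1 of 3M was the highest of all 8, and the other 3 arrays of 3M lay below every 29M array. Leaving out the highest array of a group lowers the group mean and narrows its range by itself. With all arrays the change was 0.35 ± 0.27 (1.28-fold, interval 0.84 to 1.93, adjusted p 0.569). Without replicate 1 of 3M it was 0.67 ± 0.12 with an adjusted p of 0.0211, the only member probe called in that fit, in which 2.20% of all tested probes were called higher and 1.33% lower. In the same fit the adjusted p of Gpr34 was 0.09996 and that of Cx3cr1 A_55_P2007964 was 0.0673, with changes of 0.31 and 0.45 that stayed under the size threshold. Leaving out any other single array gave Aif1 no call. Its change then lay between 0.20 (without replicate 3 of 3M, adjusted p 0.793) and 0.44 (without replicate 4 of 29M, 0.595).

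**Figure D2:**
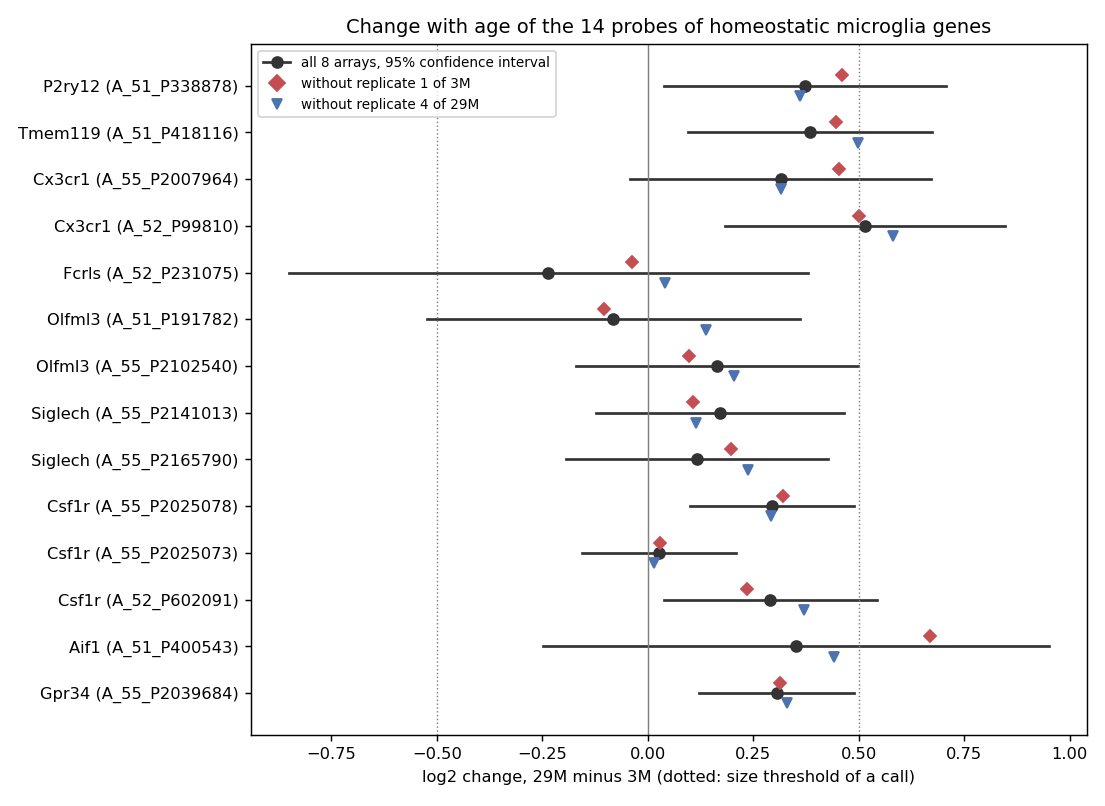
Log2 change of the 14 probes (29M minus 3M; black points with 95% confidence intervals for all 8 arrays, coloured points for the fits without replicate 1 of 3M or without replicate 4 of 29M, dotted lines at the size required for a call). The Aif1 point moves from 0.35 to 0.67 without replicate 1 of 3M, and the Fcrls point moves from -0.24 to 0.04 without replicate 4 of 29M.

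The arrays that set these values were traced by slide. Within slides, 8 of the 14 probes were higher in 29M on all 3 slides. The share over all tested probes was not computed for this count. The 8 were the probes of P2ry12, Tmem119 and Gpr34, both of Cx3cr1, 2 of Csf1r and 1 of Olfml3. Within slides Gpr34 differed by 0.29, 0.37 and 0.28, and Csf1r A_55_P2025078 gave 0.26, 0.32 and 0.24. On slide 1, which held replicate 1 of 3M with replicates 3 and 4 of 29M, Aif1 was lower in 29M by 0.66 (log2 difference of -0.66) and Fcrls by 1.03 (-1.03). On slides 2 and 3 Aif1 was higher in 29M by 0.67 and 0.74, and Fcrls by 0.21 and 0.16. Slide 1 held a single 3M array, slide 2 held 1 array of each age and slide 3 a single 29M array. Every difference within a slide thus rested on a single array of at least 1 age. In the limma fit with slide as a fixed block, the change was 0.21 for Aif1 (adjusted p 0.729) and -0.26 for Fcrls (0.728).

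The mean over the 9 genes, each centred on its own mean over the arrays, was 0.14, -0.21, -0.24 and -0.10 in 3M and 0.15, 0.10, 0.29 and -0.15 in 29M (log2 units, replicates 1 to 4). The first 3M replicate thus sat among the 29M arrays and replicate 4 of 29M among the 3M arrays. Replicate 3 of 29M was the highest of its group for 9 of the 14 probes and replicate 4 the lowest for 7. Replicate 1 of 3M was the highest of its group for 5 probes and the lowest for 3. Without replicate 4 of 29M, 14 of 14 probes were higher in 29M and 0 were called. Leaving out the lowest array of a group raises the group mean by itself. With any 3M array left out, 11 or 12 of 14 probes were higher in 29M. Without replicate 1, 2 or 3 of 29M it was 11 of the 13 probes that could be tested.

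Where a gene had several probes, their age effects were compared by an exact permutation test of the difference over the arrays, two-sided, for 6 pairs of probes. The changes of Csf1r A_55_P2025078 and A_55_P2025073 differed by 0.27, at the smallest p the design allows (exact p 0.0286, adjusted over the 6 pairs 0.171). For the other 5 pairs the exact p lay between 0.114 and 0.971. The 2 Siglech probes ran in opposite directions across arrays, with r = -0.46 over the 8 arrays and -0.69 for deviations from the group means. Cx3cr1 probes correlated with r = 0.29 over 7 arrays and -0.45 within groups, and the Olfml3 probes with -0.11 and -0.07. Which probe better reports the transcript cannot be told from these files, which hold no probe sequences.

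Between genes, values of the arrays tended to move together. Over the 36 pairs of genes, by the probe with the highest mean, r was above 0 in 27 pairs with a median of 0.45, and for deviations from the group means it was above 0 in 28 pairs with a median of 0.42. These are descriptions over 8 arrays (7 where Cx3cr1 A_55_P2007964 takes part) that share slides and one normalization. The closest pair was Csf1r and Gpr34, with r = 0.96 over the arrays and 0.84 within groups. Cx3cr1 and Aif1 followed each other with 0.93 and 0.91, and P2ry12 and Csf1r with 0.87 and 0.79. Other probes of these genes were less alike. Aif1 gave 0.30 and -0.01 with Cx3cr1 A_52_P99810. P2ry12 gave 0.68 and 0.76 with Csf1r A_55_P2025073, and 0.27 and -0.40 with A_52_P602091. Tmem119 and Fcrls correlated weakly over all arrays (0.40) but closely within groups (0.93), and their group means differed in opposite directions. Siglech A_55_P2141013 was the exception among the probes with the highest mean, with r within groups of -0.84 with Gpr34 and -0.74 with Csf1r.

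**Figure D3:**
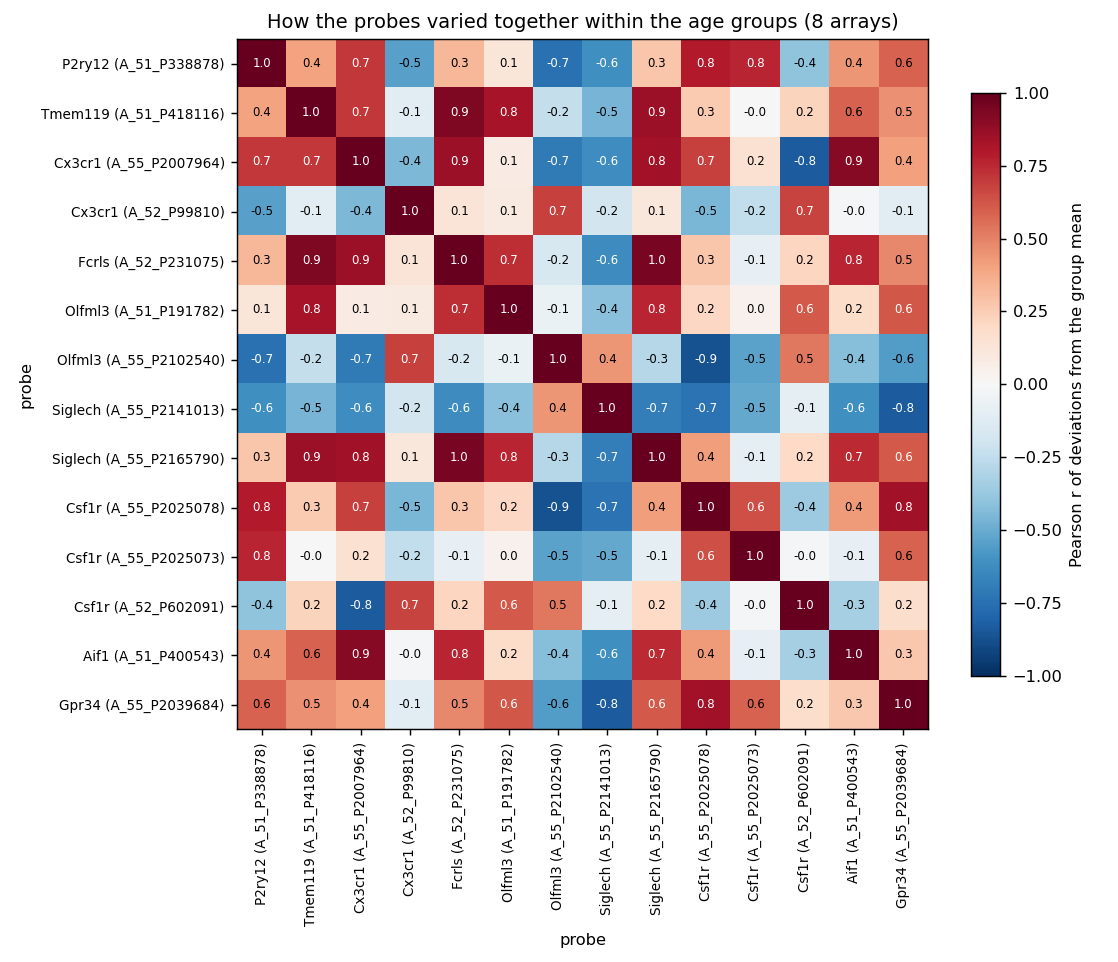
Pearson r between the 14 probes for deviations from the group mean (both axes list the probes; colour and number give r over 8 arrays, 7 for Cx3cr1 A_55_P2007964). Tmem119, Fcrls, Siglech A_55_P2165790 and Olfml3 A_51_P191782 form one set of high r, P2ry12, Csf1r A_55_P2025078 and Gpr34 another, and Siglech A_55_P2141013 is negative with most.

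The genes whose pattern was most like the mean of the 9 were sought by Pearson r over the 8 arrays among 16443 genes with a probe well above background. The first 8 were Cxcl16 (r = 0.98), Rasal3 (0.98), Tnni3k (0.98), Ly96 (0.98), H2-Eb1 (0.98), Slc19a3 (0.97), Abi3 (0.97) and H2-Ab1 (0.97). Of these, Cxcl16 is a chemokine, Ly96 the co-receptor of Tlr4, and H2-Eb1 and H2-Ab1 are chains of MHC class II. Rasal3, Tnni3k, Slc19a3 and Abi3 are named without a role, and no shared function was tested for the 8. For deviations from the group means their r lay between 0.95 and 0.99. The 8 were picked for the highest r over the same arrays, so a high r within groups adds no separate support. None of the 8 was called, and H2-Eb1 had the largest change (0.65, adjusted p 0.428).

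Genes that act on or with the members were examined from lists. Of 15 ligands, partner and TGF-beta genes on the array, 2 were called higher and 0 lower in limma (8 and 0 at an unadjusted p under 0.05), with a median change of 0.26. The count was 1 without replicate 3 of 3M but 4 without replicate 1 of that group. Tyrobp, the signalling adaptor of Siglech and Trem2, rose from 13.17 ± 0.26 (mean normalized log2 intensity ± SD, n = 4) to 13.98 ± 0.19, a change of 0.81 with an adjusted p of 0.029 in limma. Csf1, a ligand of Csf1r, rose by 0.54 (adjusted p 0.026), from a mean of 12.55 in 3M to 13.09 in 29M, and its groups did not overlap. Il34, the other ligand of Csf1r, differed by 0.21 (adjusted p 0.422), and the fractalkine gene Cx3cl1 by -0.11 (0.731). The nucleotide-degrading ectoenzyme Entpd1, which acts on P2ry12 ligands, differed by 0.05 (0.948), and the integrin Itgam by -0.04 (0.878). Tgfbr1, a receptor chain for TGF-beta, differed by 0.50 (0.275). Of 15 transcription factors of microglia, Irf8 was called higher (0.61, adjusted p 0.067) and 0 were lower (5 higher and 1 lower at the unadjusted level), with a median of 0.14. Irf5 differed by 0.55 (0.113) and Sall1 by 0.25 (0.230), while Egr1, Sall3 and Mef2a had the lowest values (-0.31, -0.22 and -0.14). Spi1, the gene of PU.1, was clear of background on 3 arrays of 8, and little can be said of it. No factor was called with either the slide or the replicate number as a fixed block, with 75th percentile scaling, or when any array other than replicate 1 of 3M was left out.

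Of 26 other homeostatic genes on the array, 5 were called higher and 0 lower (14 and 0 at the unadjusted level), and 22 had a change above 0, with a median of 0.35. The called genes were Upk1b (1.10, adjusted p 0.002), Lag3 (0.88, 0.067), the protease Ctss (0.84, 0.013), the cyclooxygenase Ptgs1 (0.52, 0.090) and P2ry13 (0.50, 0.067), an ADP receptor related to P2ry12. The lowest values were those of Bin1 (-0.11), Ltc4s (-0.10) and Adgrg1 (-0.01). The mean over these 26 genes, centred as above, lay between -0.18 and -0.16 on the 3M arrays and between 0.05 and 0.21 on the 29M arrays, without overlap. In this list replicate 1 of 3M (-0.17) did not stand apart, as it did for the 9 genes. The count of calls was 9 without that array, 5 without replicate 4 of 29M and 2 without any other of the arrays.

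Of 23 genes of activated or disease-associated microglia on the array, 9 were called higher and 0 lower (14 and 1 at the unadjusted level), with a median of 0.54. The largest rises were those of the protease inhibitor Cst7 (2.62, adjusted p 0.006), the integrin Itgax (1.90, 0.008) and the lysozyme Lyz2 (1.36, 0.031). Spp1 (1.30), Gpnmb (1.13), Lgals3 (0.82), Trem2 (0.66), Csf1 (0.54) and Ctsz (0.52) also rose. Of the genes with a change below 0, Lpl differed by -0.36 (0.267) and Timp2 by -0.08 (0.740). The mean over this list was between -0.49 and -0.12 in 3M and between 0.11 and 0.40 in 29M. Within each group replicate 1 of 3M and replicate 4 of 29M were nearest to the other age. When replicate 1 of 29M was left out, 4 genes of this list were called. The count was 5 without replicate 2 or 3 of 3M or replicate 2 of 29M, 6 to 8 without replicate 4 of 3M or replicates 3 or 4 of 29M, but 12 when replicate 1 of 3M was dropped. The lists were not compared with each other by a test.

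**Figure D4:**
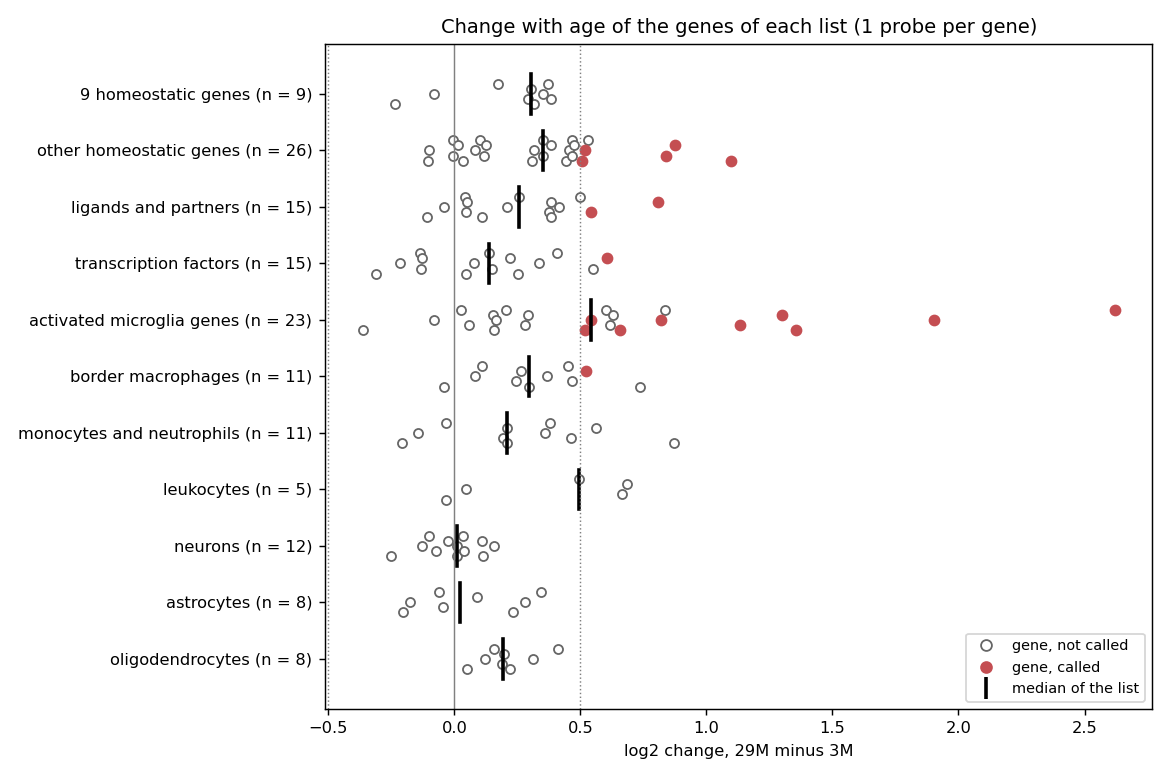
Log2 change (29M minus 3M, x axis) of each gene in the lists, 1 probe per gene (filled points are called genes, vertical bars the median of a list, dotted lines the size required for a call). The 9 homeostatic genes lie between -0.24 and 0.38 with no filled point, while the activated microglia genes reach 2.62 with 9 filled points.

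Markers of other cells were set beside these values. Of 11 markers of border macrophages, which share several members with microglia, Cbr2 was called (0.52, adjusted p 0.0555) and 10 had a change above 0, with a median of 0.30 and values from -0.04 (Clec10a) to 0.74 (Ms4a7). Their mean ran from -0.32 to 0.07 in 3M and from -0.06 to 0.39 in 29M, with replicate 1 highest in 3M and replicate 4 lowest in 29M, as for the 9 genes. Of these markers Cd163 was not well above background on any array, and the other 10 were on all 8. Cbr2 lost its call with either the slide or the replicate number as a fixed block, with 75th percentile scaling of processed signals, with normexp and quantile normalization, and when replicate 2, 3 or 4 of 3M or replicate 2 or 3 of 29M was left out. Of 11 markers of blood monocytes and neutrophils 0 were called (3 higher at the unadjusted level), with a median of 0.21 and values from -0.21 (Plac8) to 0.87 (S100a8). The range of their mean was -0.30 to 0.12 in 3M and -0.12 to 0.37 in 29M. Of the 5 general leukocyte markers 0 were called with all arrays and 3 without replicate 1 of 3M, with a median of 0.50. Their mean was 0.26 in replicate 1 of 3M, -0.37 to -0.32 in the other 3 arrays of 3M and 0.02 to 0.28 in 29M. Leaving out this highest 3M array lowers the 3M mean by itself. By slide the medians of these 5 were -0.15, 0.76 and 0.82. The part of any of these cells in the values of the 9 genes was not tested.

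For genes of the other brain cells the medians were 0.01 over 12 neuron markers (from -0.25 for Tubb3 to 0.16 for Slc17a7), 0.02 over 8 astrocyte markers (-0.20 for Slc1a2 to 0.34 for S100b) and 0.02 over the 10 hippocampal markers (-0.34 for Lct to 0.39 for Trhr). The astrocyte list did not hold Gfap, which the study reported as increased with age. Over 8 oligodendrocyte markers the median was 0.19, with Mobp lowest (0.05) and Cldn11 highest (0.41). With each gene taken by the probe with the highest mean, 0 genes of these 4 lists were called in limma (at the unadjusted level 1 astrocyte and 1 oligodendrocyte gene were higher and 2 hippocampal genes lower). At every alternative setting that was fitted this count was also 0. Of the 3 probes of Mbp, 1 that did not have the highest mean was called higher in 29M. On replicate 1 of 3M the mean was -0.06 over the neuron markers and 0.01 over the astrocyte markers, in or near the range of the other 3M arrays. Over the oligodendrocyte markers it was -0.26, below the other 3M arrays (-0.18 to 0.11).

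**Figure D5:**
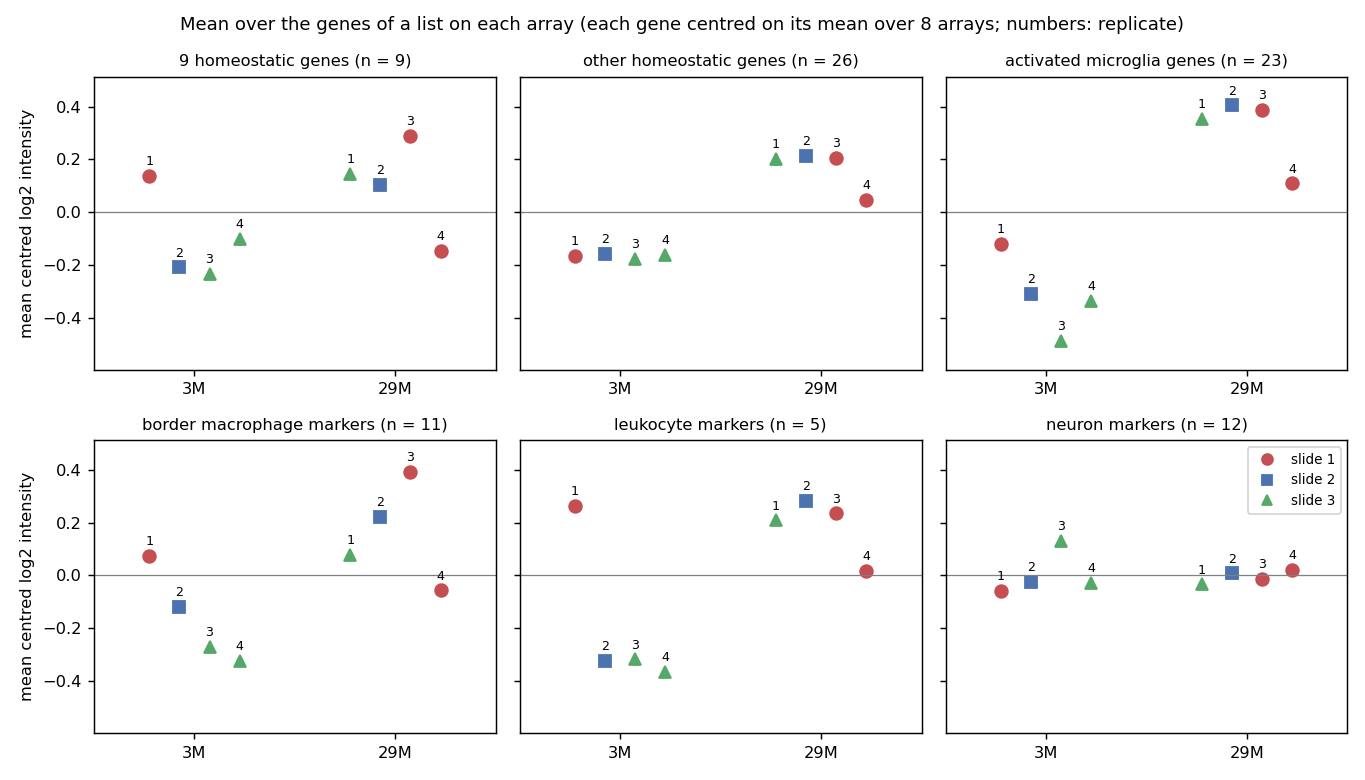
Mean over the genes of a list on each array (y axis in log2 units, each gene centred on its mean over the 8 arrays; replicate numbers above the points, colour and shape for the slide). For the 9 genes, replicate 1 of 3M (0.14) lies with 29M and replicate 4 of 29M (-0.15) with 3M, whereas the groups are separate for the other homeostatic and the activated microglia genes.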

How the data were processed

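Hippocampal RNA of 4 samples at 3M and 4 at 29M was measured, with groups taken from the sample titles. For each array the authors deposited scanner intensities on a linear scale, which per the file headers came from Feature Extraction 10.7.3.1 on an Agilent G2505C scanner with the array annotated on mm9. The methods name another software version, scanner and design, and the headers were followed. The mean spot intensity that had been planned was not among the columns used here, so the median was taken. The deposited table of the whole series holds intensities too, but each of its 8 columns held local background averages of an array (tolerance 0.001), in 7 cases of a sample other than the one named, with column medians of 26.7 to 34.8. It was not used, and its scale, centring and direction as expression stay unknown.

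Spots of controls and spots marked as outliers (127 to 190 on an array) were removed. Variance stabilising normalization, named in the methods, was implemented in R 4.3.3 (1 offset and 1 scale per array, trimming quantile 0.9, 7 iterations, 5 intensity slices). It gives a generalized log2 value, which understates changes of dim probes. Age was fitted in limma 3.58.1 with eBayes to the 39408 probes that had 3 or more usable arrays in each group, and p-values were adjusted by Benjamini-Hochberg. The procedure was tested on simulated data. Accessions were matched to RefSeq genes of GRCm38.p6 (26055 of 39429 probes, 66.1%). No coordinates of probes are given. A gene with several probes was represented by the one with the highest mean. The number of arrays limits the precision.

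All probes of the 9 genes are reported. From the other lists the called genes, the ligands and partners Cx3cl1, Csf1, Il34, Entpd1, Tyrobp and Itgam, and the 3 highest and 3 lowest changes were to be named, which for lists of other cell types is shortened to the ends of the range. Single values of 2 genes of the lists are not reported here. The members and lists were chosen with earlier results of these data known. Alternatives were other normalizations, spot and probe filters, slide or replicate number as a block, another variance prior, array weights and each array left out. The counts of called genes in the lists under them were added after seeing the data.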

Additional observations from a re-analysis of the deposited data

Results flagged for a closer look

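In 29 sets of 4 values (each probe in each age group where 4 arrays were usable, and the mean over the 9 genes in each age group) the gap of the highest or lowest array to its neighbour was divided by the range, and 3 sets exceeded the 95% critical value of Dixon's test for 4 values, which chance passes in about 1 of 20 sets (1.45 of 29). For Fcrls, replicate 1 of 3M was at 12.80 against 11.98 to 12.11 on the other 3M arrays (gap over range 0.846). For Fcrls in 29M, replicate 4 was at 11.16 against 12.19 to 12.38 (0.840). For Csf1r A_52_P602091, replicate 1 of 3M was at 9.53 against 9.76 to 9.79 (0.868). Replicate 1 of 3M was thus high in one case and low in the other.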

How the results depend on the processing

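With all 8 arrays and the main settings 0 of 14 probes were called. Of 249 values of the 14 probes under 18 alternative fits, 246 kept the direction of the main fit and 5 passed the criteria. With slide as a fixed block 1 probe was called (Cx3cr1 A_52_P99810, 0.58, adjusted p 0.0795), and with array weights 2 (the same Cx3cr1 probe, 0.63, adjusted p 0.0265, and Aif1, 0.56, adjusted p 0.0828). Leaving out 1 array gave 0 to 1 called probes: Aif1 without replicate 1 of 3M (0.67, 0.0211) and Cx3cr1 A_52_P99810 without replicate 3 of 29M (0.63, 0.0688). The other Cx3cr1 probe could not be tested without replicate 1, 2 or 3 of 29M, since 2 usable arrays were left. The median over the 9 genes stayed between 0.25 and 0.32. Signs turned without replicate 4 of 29M for Fcrls (0.04) and Olfml3 A_51_P191782 (0.14), and without replicate 2 of 3M for Csf1r A_55_P2025073 (-0.01). With the replicate number as a block, 0 of 14 probes were called (lowest adjusted p 0.188). Same-numbered samples did not pair: the correlations of their deviations were -0.27, 0.22, -0.21 and 0.08, and 1 of 4 was the best match of its sample. Over all probes, 478 were called higher and 279 lower, 285 and 162 with the replicate block, 254 and 126 when replicate 2 of 3M was dropped, 864 and 523 when replicate 1 was, and 850 and 550 with array weights. Called genes of the other homeostatic list ranged from 2 (replicate block) to 9 (array weights), of the activated list from 4 to 12, of ligands and partners from 1 to 4, of transcription factors from 0 to 2, of border macrophages from 0 to 4 and of leukocytes from 0 to 3. For the markers of blood monocytes and neutrophils the count ranged from 0 to 1 (slide as a fixed block). The causes were not tested.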
